A study of Mus musculus with 6 samples.

Results

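A set of 9 enzymes of amino acid and nitrogen metabolism was followed in lung tumour cells labelled Lkb1 wild type or Lkb1 mutant: the alanine aminotransferases Gpt and Gpt2, the aspartate aminotransferases Got1 and Got2, asparagine synthetase (Asns), carbamoyl phosphate synthetase 1 (Cps1), glutamine synthetase (Glul), and 2 enzymes of serine synthesis, Psat1 and Phgdh. They were chosen by gene name, and all 9 were present among the 55487 genes of the count table. The libraries were RNA of lung tumour cells from mice of the KP model, as the labels name it; they do not spell out the alleles, the Cre, or whether a library came from 1 animal or a pool. All 6 libraries carried the KP background, with 3 labelled sgNeo and Lkb1 wild type (the controls) and 3 labelled sgLkb1 and Lkb1 mutant, Lkb1 being listed in the table as Stk11. Sorting for GFP and against CD45, the pan-leukocyte antigen, was done 11 weeks after the tumours were started. Total counts ran from 26007503 to 28986526 in sgNeo and from 29613678 to 41729299 in sgLkb1 libraries. Stk11, the targeted gene, was at 68.3, 33.4 and 82.7 CPM with sgNeo and 23.5, 25.6 and 25.3 CPM with sgLkb1 (edgeR adjusted p = 0.023, log2 fold change -1.31 with SE 0.30), lower in every sgLkb1 library; the call held without sgNeo replicate 2 and was lost when any of the other 5 libraries was removed (edgeR adjusted p up to 0.076). Nothing in the labels says that the replicates were separate animals, and the spread behind each p-value is that between these libraries, which may be technical.

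Aminotransferases pass an amino group between glutamate and a keto acid. GPT enzymes make alanine from pyruvate and GOT enzymes make aspartate from oxaloacetate, each as a cytosolic form (Gpt, Got1) and a mitochondrial form (Gpt2, Got2). The GOT pair also forms part of the malate-aspartate shuttle, which carries reducing equivalents into mitochondria. PHGDH takes the first committed step from glycolysis to serine, PSAT1 the next, an aminotransfer from glutamate. ASNS moves the amide nitrogen of glutamine onto aspartate, GLUL fixes ammonia into glutamine, and CPS1 fixes ammonia into carbamoyl phosphate in mitochondria, mainly in liver and gut. Several of these genes, Asns, Psat1, Phgdh and Gpt2 among them, are known targets of ATF4, the transcription factor that responds to a shortage of amino acids. In human lung cancer cells with LKB1 loss, CPS1 has been described as raised.

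Of the 9 members 8 passed the filter on low counts, and Cps1 had no counts. In sgLkb1 libraries Got1 and Glul were higher, Gpt and Gpt2 were lower, and Got2, Asns, Psat1 and Phgdh did not pass the test. The test was edgeR's quasi-likelihood test over all 15978 genes that passed the filter, with Benjamini-Hochberg adjustment at 0.05. By the same test 15.7% of all genes tested were called, 7.05% higher and 8.60% lower. The median log2 fold change (sgLkb1 minus sgNeo) was 0.14 over the 8 members and 0.02 over all genes tested. Groups that do not overlap were found for 4 of the 8 members and for 36.5% of all genes tested. The members were proposed with results of these data known, so their share of calls is a description. Levels are CPM, counts scaled to a common library size after TMM normalisation, and errors are SD with n = 3. Where 3 values are given for a genotype, they stand in the order of replicates 1, 2 and 3. Bulk libraries cannot tell fewer cells of a type from less RNA per cell.

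**Figure D1:**
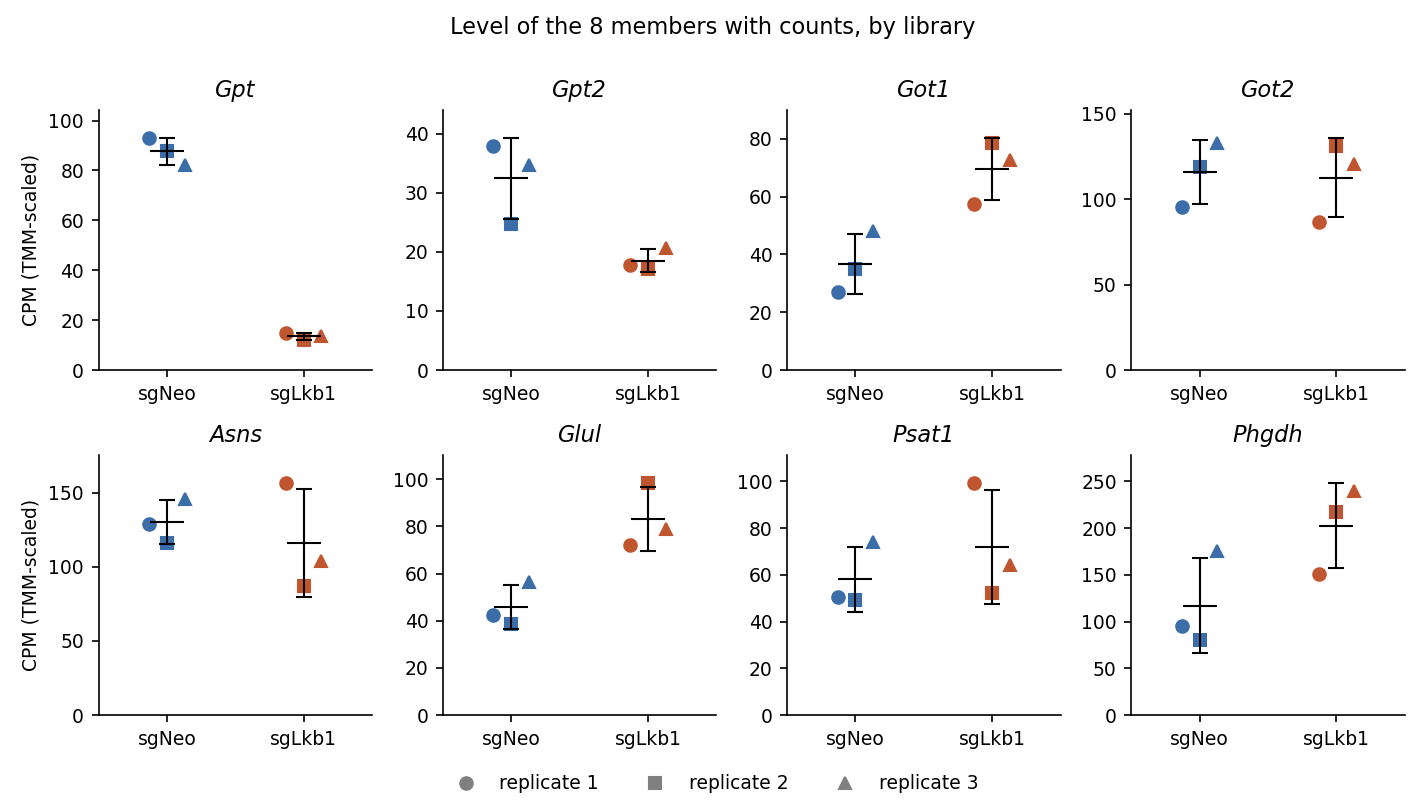
CPM of the 8 members with counts in each of 6 libraries. Points are libraries (marker shape: replicate number), black bars are the mean and SD of 3 libraries. The genotypes do not overlap for Gpt, Gpt2, Got1 and Glul, and overlap for Got2, Asns, Psat1 and Phgdh.

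Promoter windows from RefSeq (GRCm38.p6), 250 bases before to 50 after a start site, were on hand for 7 of the 9 members, with 2 windows for Psat1 and no entry for Gpt and Cps1. They were searched on both strands for TGATGNAA, the element bound by ATF4 with C/EBP proteins, for TGACGTCA, the cyclic AMP response element, and for CACGTG, the E-box. TGATGNAA occurred in the windows of Asns and Got1, and 3.97% of all 32851 windows hold it. The other 2 motifs, held by 1.79% and 7.15% of all windows, were not in the members' windows. Asns, a known ATF4 target whose match begins 23 bases before the start site, and Got1, with a match 102 bases before its start site on the opposite strand, are shown with the match in capitals. Glul, which rose like Got1, and Gpt2, which fell, are shown beside them and hold no match. Each is written 5′ to 3′ on the strand of its gene. Asns is at chr6:7693160-7693459 (minus strand), Got1 at chr19:43524556-43524855 (minus strand), Glul at chr1:153899679-153899978 (plus strand) and Gpt2 at chr8:85492326-85492625 (plus strand).
Asns: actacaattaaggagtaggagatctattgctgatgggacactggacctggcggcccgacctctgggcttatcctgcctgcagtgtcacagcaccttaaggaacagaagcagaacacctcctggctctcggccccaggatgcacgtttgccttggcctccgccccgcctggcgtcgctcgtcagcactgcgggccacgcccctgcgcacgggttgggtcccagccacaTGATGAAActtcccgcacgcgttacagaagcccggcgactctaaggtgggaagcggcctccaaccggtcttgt
Got1: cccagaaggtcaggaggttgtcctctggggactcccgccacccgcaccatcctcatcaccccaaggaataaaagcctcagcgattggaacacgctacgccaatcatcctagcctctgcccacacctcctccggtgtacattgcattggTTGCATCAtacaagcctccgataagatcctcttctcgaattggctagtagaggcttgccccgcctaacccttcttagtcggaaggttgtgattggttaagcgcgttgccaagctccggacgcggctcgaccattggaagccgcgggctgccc
Glul: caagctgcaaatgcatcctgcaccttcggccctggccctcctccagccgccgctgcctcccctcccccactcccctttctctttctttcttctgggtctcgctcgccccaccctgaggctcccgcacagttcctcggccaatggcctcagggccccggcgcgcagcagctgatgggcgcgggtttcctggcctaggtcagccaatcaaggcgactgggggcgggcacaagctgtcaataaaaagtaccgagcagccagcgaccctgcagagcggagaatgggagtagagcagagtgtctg
Gpt2: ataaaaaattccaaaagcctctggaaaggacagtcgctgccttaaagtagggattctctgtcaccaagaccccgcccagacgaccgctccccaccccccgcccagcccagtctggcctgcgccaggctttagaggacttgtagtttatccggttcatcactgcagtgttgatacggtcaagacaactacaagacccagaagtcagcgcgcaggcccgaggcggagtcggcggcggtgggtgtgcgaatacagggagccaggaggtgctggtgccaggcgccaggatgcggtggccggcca
Of the genes with the element in this window, Got1 rose and Asns did not pass. A match describes the letters only.

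Gpt (chr15:76695716-76699686, plus strand, GRCm38), the cytosolic alanine aminotransferase, fell furthest. Its level was 93.1, 87.7 and 82.1 CPM with sgNeo and 14.8, 12.2 and 13.5 CPM with sgLkb1. Each genotype was tight, and all sgLkb1 libraries lay far below all sgNeo libraries. The group means were 87.7 ± 5.50 and 13.5 ± 1.34 CPM, a log2 fold change of -2.70 (SE 0.15, 95% interval -3.05 to -2.35, edgeR adjusted p = 0.00017), or 6.49-fold lower. Its p ranked 7 among the 15978 genes tested. The call held in all 6 fits that left out a library, with log2 fold changes from -2.76 to -2.60.

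Markers of alveolar type 2 cells, the surfactant-making cells of the lung, moved with Gpt. All 5 of the markers Sftpc, Sftpa1, Sftpb, Lamp3 and Abca3 fell, and their summed level was 114262 to 135062 CPM in sgNeo and 10806 to 18018 CPM in sgLkb1 libraries. Their part in the difference in Gpt was not tested. Among 10432 genes with a mean of at least 5 CPM, the pattern of Gpt over the 6 libraries was most like that of Tspan12, St6galnac4 and Sftpa1 (Pearson r = 0.999 for each on log2 CPM). Both genotypes enter these correlations, which are descriptions. Hepatocytes also express much Gpt, and of 6 hepatocyte markers 2 (Alb and Apob) fell, with a summed level of 16.9 to 46.0 CPM in sgNeo and 4.04 to 6.92 CPM in sgLkb1 libraries. Apob alone was at 13.3, 37.0 and 8.64 CPM in the sgNeo libraries and 1.84 to 3.06 CPM in the sgLkb1 libraries. Cyp2e1 went the other way without passing, at 0.17 ± 0.21 and 1.31 ± 1.56 CPM (edgeR adjusted p = 0.27). Apoa1 was lower without passing, at 4.45 ± 3.68 and 0.87 ± 0.48 CPM (edgeR adjusted p = 0.14). Of the 6, Ahsg and Fgb were at most 0.16 and 0.52 CPM in any library, and the part of such cells was not tested.

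Gpt2 (chr8:85492576-85527560, plus strand), the mitochondrial form, was also lower. It was at 37.9, 24.8 and 34.8 CPM in the sgNeo libraries against 17.7, 17.03 and 20.7 CPM in those with sgLkb1. The groups did not overlap, and the nearest libraries were sgNeo replicate 2 and sgLkb1 replicate 3. The means were 32.5 ± 6.87 and 18.5 ± 1.96 CPM (log2 fold change -0.81, SE 0.20, 95% interval -1.28 to -0.35, edgeR adjusted p = 0.031). The call was lost without sgNeo replicate 1 (edgeR adjusted p = 0.12), sgNeo replicate 3 (0.099), sgLkb1 replicate 1 (0.061) or sgLkb1 replicate 2 (0.11). Its closest patterns were those of Rnf185, Blcap and Ccdc115 (Pearson r = 0.993, 0.989 and 0.988 over 6 libraries).

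The balance of the mitochondrial and cytosolic alanine aminotransferases was compared within libraries. The log2 ratio of Gpt2 to Gpt within a library, which does not depend on library scaling, was -1.30, -1.82 and -1.24 with sgNeo. It was 0.25, 0.48 and 0.62 with sgLkb1. The ratio was thus higher in every sgLkb1 library, by 1.91 on the log2 scale between the means (SD 0.32 in sgNeo and 0.19 in sgLkb1). The exact permutation test, two-sided, gave p = 0.10, the smallest that 3 libraries against 3 allow, and 0.20 after Benjamini-Hochberg adjustment over the 4 ratios compared, of which 3 are reported.

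Got1 (chr19:43499752-43524605, minus strand), the cytosolic aspartate aminotransferase, rose. It was at 27.1, 34.9 and 48.0 CPM with sgNeo and 57.6, 78.4 and 72.8 CPM with sgLkb1. Every sgLkb1 library lay above every sgNeo library, with sgLkb1 replicate 1 nearest to the controls. The means were 36.7 ± 10.5 and 69.6 ± 10.8 CPM (log2 fold change 0.92, SE 0.23, 95% interval 0.39 to 1.45, edgeR adjusted p = 0.031). The call was lost without sgNeo replicate 1 (edgeR adjusted p = 0.10), sgNeo replicate 2 (0.12), sgLkb1 replicate 2 (0.093) or sgLkb1 replicate 3 (0.071), with log2 fold changes from 0.74 to 1.16 over the 6 fits. Ier3, Kcnn4 and Ikbke had the patterns most like it (Pearson r = 0.998, 0.998 and 0.995 over 6 libraries).

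Got2 (chr8:95864134-95888547, minus strand), the mitochondrial form, showed no difference past the threshold. It was at 95.8, 119 and 133 CPM in the sgNeo libraries against 86.5, 131 and 121 CPM in those with sgLkb1. The lowest library of each genotype was replicate 1, and the groups overlapped. The log2 fold change was -0.04 with a 95% interval of -0.51 to 0.43 (edgeR adjusted p = 0.92), an interval from 1.42-fold lower to 1.35-fold higher. Expected counts of Got2 were fractional in all 6 libraries, as RSEM gives where reads match more than 1 gene, and its pseudogene Got2-ps1 was at 0.44 to 1.31 CPM.

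Within each library the log2 ratio of Got2 to Got1 was 1.82, 1.77 and 1.47 with sgNeo and 0.59, 0.74 and 0.73 with sgLkb1. It was lower in every sgLkb1 library, with a difference of -0.999 between the means (SD 0.19 and 0.086). The exact permutation p was 0.10 and 0.20 adjusted, again the smallest the design allows before adjustment.

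**Figure D2:**
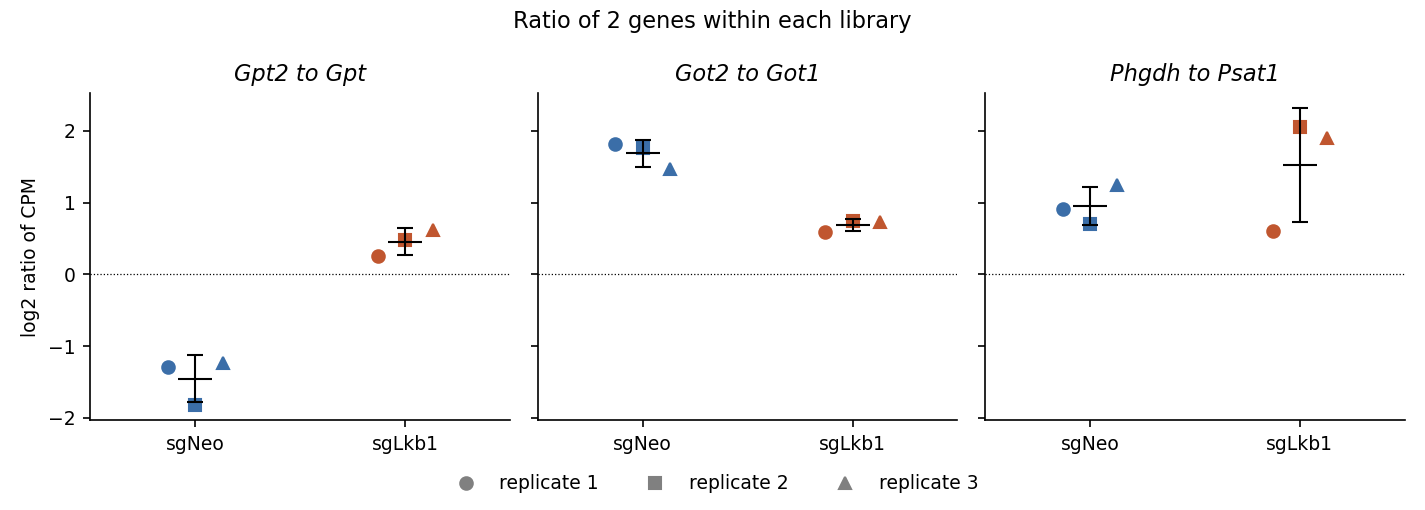
Log2 ratio of the CPM of 2 genes within each library for 3 pairs. Points are libraries (marker shape: replicate number) and black bars the mean and SD of 3. Gpt2 to Gpt is higher in every sgLkb1 library, Got2 to Got1 is lower in every sgLkb1 library, and Phgdh to Psat1 overlaps between genotypes.

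Glul (chr1:153899944-153909723, plus strand), glutamine synthetase, rose. It was at 42.4, 38.7 and 56.4 CPM with sgNeo and 72.3, 98.5 and 78.7 CPM with sgLkb1. All sgLkb1 libraries were above all sgNeo libraries, the highest being sgLkb1 replicate 2. The means were 45.8 ± 9.29 and 83.1 ± 13.6 CPM (log2 fold change 0.86, SE 0.20, 95% interval 0.41 to 1.31, edgeR adjusted p = 0.022). The call was lost without sgNeo replicate 1 (edgeR adjusted p = 0.093), sgNeo replicate 2 (0.11) or sgLkb1 replicate 2 (0.071). Has2, Eif4a1 and Pak1 had the patterns most like it (Pearson r = 0.998, 0.997 and 0.997 over 6 libraries). An exon of Glul overlaps exons of Teddm2, on the other strand, and of Mir8114, and its expected counts were fractional in all 6 libraries; Teddm2 was at 0.29 to 1.28 CPM.

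Some stromal markers and the mesothelial marker Msln were also higher beside Got1 and Glul. Of 6 fibroblast markers 4 rose, with a summed level of 35.0 to 109 CPM in sgNeo and 174 to 1383 CPM in sgLkb1 libraries, the highest in sgLkb1 replicate 3. Of 5 endothelial markers 2 rose (summed level 25.6 to 39.8 against 53.0 to 101 CPM), and of 4 mesothelial markers Msln rose (summed level 169 to 427 against 814 to 1279 CPM). Msln made up nearly all of that sum, at 168 to 426 CPM in sgNeo and 813 to 1275 CPM in sgLkb1 libraries. Upk3b, Lrrn4 and Wt1 were at most 1.73 CPM except in sgLkb1 replicate 3, where they were at 16.5, 13.1 and 7.46 CPM. The part of such cells in the differences in Glul and Got1 was not tested. Of 5 epithelial markers Epcam rose (edgeR adjusted p = 0.011) and Nkx2-1, a lung lineage factor, fell from 274 ± 18.9 to 129 ± 42.1 CPM (edgeR adjusted p = 0.021). The 5 summed to 5027 to 5857 CPM in sgNeo and 6866 to 8040 CPM in sgLkb1, and leukocyte markers to 15.9 to 20.5 and 14.9 to 33.1 CPM.

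Asns (chr6:7675169-7693254, minus strand), asparagine synthetase, did not pass. It was at 129, 116 and 145 CPM in the sgNeo libraries against 157, 87.1 and 104 CPM in those with sgLkb1. The sgLkb1 libraries spanned the sgNeo range on both sides, with replicate 1 the highest of all 6 libraries. The log2 fold change was -0.17 (95% interval -0.69 to 0.36, edgeR adjusted p = 0.67), and it was -0.43 without sgLkb1 replicate 1 (edgeR adjusted p = 0.13).

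Phgdh (chr3:98313170-98339990, minus strand), the first enzyme of serine synthesis, had higher sgLkb1 values without passing. It was at 95.3, 80.5 and 175 CPM with sgNeo and 151, 217 and 239 CPM with sgLkb1. The groups overlapped, with sgNeo replicate 3 above sgLkb1 replicate 1. The means were 117 ± 51.1 and 203 ± 45.9 CPM (log2 fold change 0.79, SE 0.31, 95% interval 0.08 to 1.51 before adjustment, edgeR adjusted p = 0.13). Without sgNeo replicate 3 the log2 fold change was 1.20 and passed (edgeR adjusted p = 0.029), as did all 6 libraries with DESeq2 (adjusted p = 0.044) or without the filter on low counts (edgeR adjusted p = 0.0073). Expected counts of Phgdh were fractional in all 6 libraries, and its pseudogene Phgdh-ps1 was listed at 0.

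Psat1 (chr19:15904678-15947337, minus strand), which takes the next step, was at 50.7, 49.4 and 74.2 CPM in the sgNeo libraries against 99.4, 52.5 and 64.0 CPM in those with sgLkb1. The groups overlapped, and sgLkb1 replicate 1 was the highest library. The log2 fold change was 0.31 (95% interval -0.31 to 0.92, edgeR adjusted p = 0.48), and 0.02 without sgLkb1 replicate 1 (edgeR adjusted p = 0.97). The log2 ratio of Phgdh to Psat1 was 0.91, 0.70 and 1.24 with sgNeo and 0.61, 2.05 and 1.90 with sgLkb1. Here sgLkb1 replicate 1 lay below all controls and the other 2 sgLkb1 libraries above them, a difference of 0.57 between the means (exact permutation p = 0.40, 0.53 adjusted). It was 1.02 without sgLkb1 replicate 1 and 0.30 and 0.38 without sgLkb1 replicates 2 and 3.

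**Figure D3:**
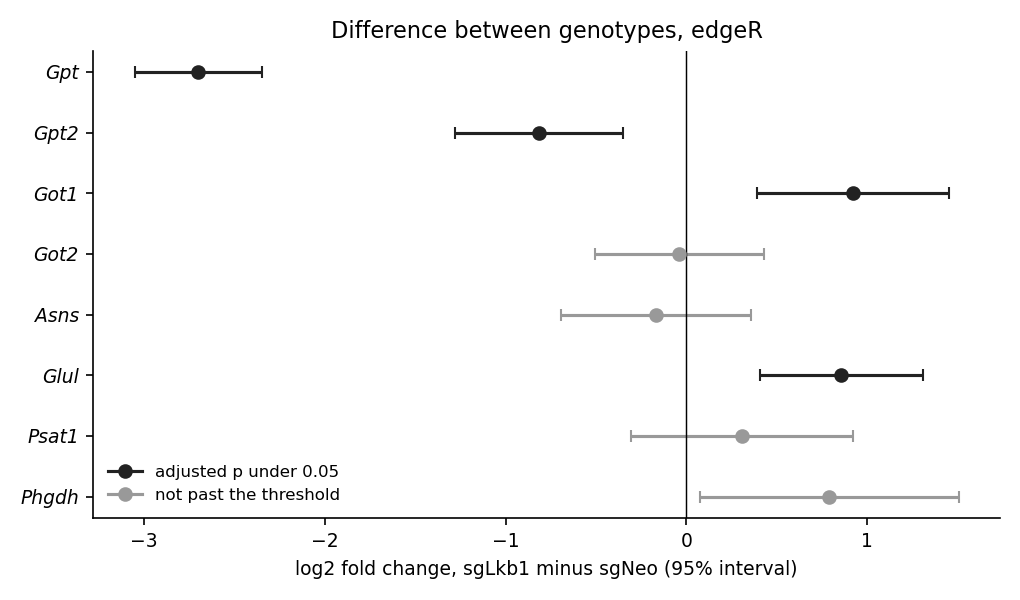
Log2 fold change of each member with counts, sgLkb1 minus sgNeo, with its unadjusted 95% interval from edgeR over 6 libraries. Black points passed at an adjusted p under 0.05: Gpt (-2.70), Gpt2 (-0.81), Got1 (0.92) and Glul (0.86).

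Cps1 (chr1:67123026-67231259, plus strand) had 0 counts in each of the 6 libraries. Taking 3 counts as the limit that a count of 0 allows, its level was below 0.119 to 0.121 CPM in sgNeo and below 0.0734 to 0.0861 CPM in sgLkb1 libraries, counting error only. It could not be tested, and its transcript was not detectable at this depth in either genotype. Of 21936 protein-coding genes in the table, 3191 (14.5%) likewise had no counts in any library. Nags, which makes the activator that CPS1 requires, was at 0 to 0.16 CPM and did not pass the filter. Otc, which uses carbamoyl phosphate in the urea cycle, was at 1.74 ± 0.42 and 1.22 ± 0.72 CPM (edgeR adjusted p = 0.58). Cad, which makes carbamoyl phosphate for pyrimidines in the cytosol, was at 26.5 ± 2.11 and 30.5 ± 5.35 CPM (edgeR adjusted p = 0.49).

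Per kilobase of merged exons, Asns and Phgdh were the most abundant members in sgNeo libraries, at 47.5 ± 5.39 and 47.1 ± 20.6 CPM per kilobase, with overlapping libraries. Gpt followed at 29.8 ± 1.87 and Got2 at 24.02 ± 3.88 CPM per kilobase. Got1, Glul and Psat1 lay close together at 14.4 ± 4.15, 13.8 ± 2.80 and 13.7 ± 3.28 CPM per kilobase with overlapping libraries, and Gpt2 was lowest of those with counts at 5.76 ± 1.22. In sgLkb1 libraries Phgdh led at 81.5 ± 18.4 CPM per kilobase, above Asns at 42.3 ± 13.3 in every library. Got1, Glul and Got2 overlapped at 27.4 ± 4.25, 25.02 ± 4.11 and 23.4 ± 4.85 CPM per kilobase, and Psat1, at 16.9 ± 5.75, overlapped them. Gpt and Gpt2 came last, at 4.59 ± 0.45 and 3.28 ± 0.35 CPM per kilobase. With the longest transcript as the length, Gpt2 stood above Gpt in sgLkb1 libraries (5.08 against 4.81 CPM per kilobase) and Got2 above Gpt in sgNeo libraries (45.8 against 31.3). By that length Psat1 also stood above Got1 and Glul in sgNeo libraries (22.2 against 17.8 and 16.4). Likewise Got2 stood above Got1 and Glul in sgLkb1 libraries (44.6 against 33.8 and 29.8).

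The order of the libraries within a genotype was shared by many members in sgNeo and less so in sgLkb1. In sgNeo, 6 of the 8 members with counts (Got1, Got2, Asns, Glul, Psat1 and Phgdh) were highest in replicate 3, as were 5691 of all 15978 genes tested. In replicate 2, 5 of the 8 were lowest, as were 4728 of all genes tested. Among sgLkb1 libraries, Got1, Got2, Glul and Phgdh were lowest in replicate 1, while Gpt, Asns and Psat1 were highest there. Replicate 1 was the lowest sgLkb1 library for 6482 and the highest for 6166 of the 15978 genes. The largest spread within a genotype was 2.18-fold for Phgdh in sgNeo and 1.89-fold for Psat1 in sgLkb1, and the smallest was 1.13-fold for Gpt in sgNeo and 1.22-fold for Gpt2 in sgLkb1, where Gpt also spread 1.22-fold.

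**Figure D4:**
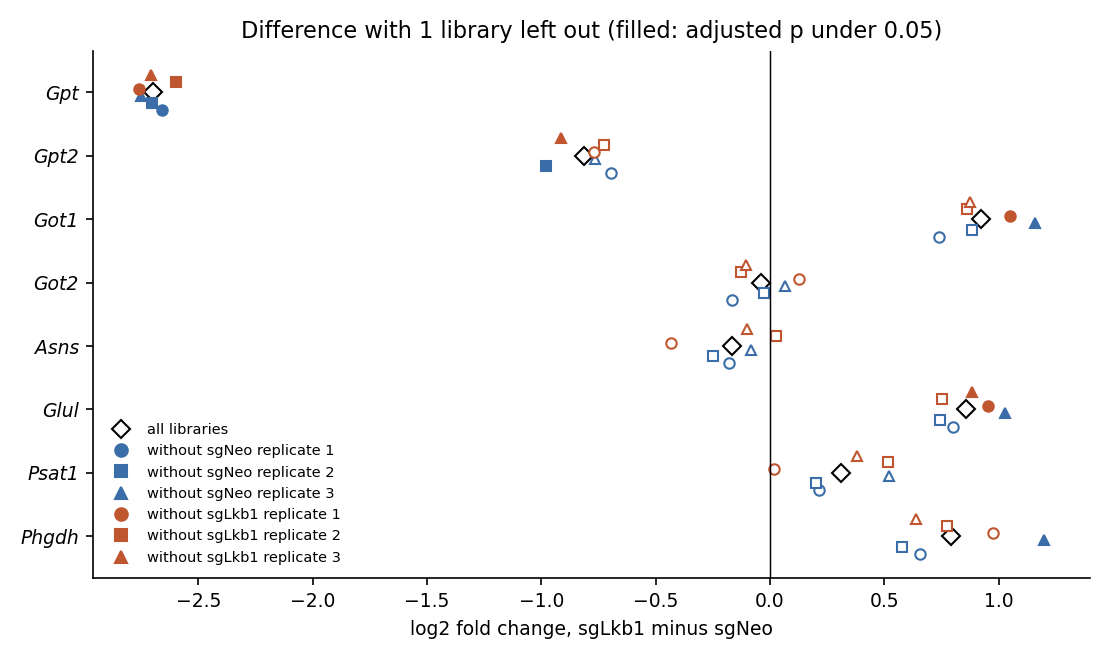
Log2 fold change of each member with all 6 libraries (open diamonds) and with 1 library left out (colour and shape: the library left out). Filled symbols passed at an adjusted p under 0.05. Gpt stays between -2.76 and -2.60 and passes in all 6 fits, while Gpt2 passes in 2, Got1 in 2, Glul in 3 and Phgdh in 1.

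In 7 lists of related genes, each gene counted once, 88 of 101 were tested, 9 rose and 11 fell, which is 22.7% of those tested against 15.7% of all genes. By list the share called was 40% for glutamine and proline, 36.4% for aspartate and asparagine use, and 33.3% for urea cycle and arginine. It was 20% for the ATF4 response, 16.7% for serine and one-carbon, 14.3% for other aminotransferases and 11.1% for glutamine amidotransferases. Each list had only 7 to 30 tested genes. Among 30 genes of the ATF4 amino acid response other than the members, all tested, 2 rose and 4 fell, with a median log2 fold change of -0.26 against 0.02 over all genes. Atf4 itself stood at 82.7 ± 9.05 and 88.9 ± 17.1 CPM (edgeR adjusted p = 0.74). Ddit3, a stress transcription factor induced by ATF4, was at 26.1 ± 3.82 and 17.4 ± 4.15 CPM (edgeR adjusted p = 0.12). Stc2, the secreted glycoprotein stanniocalcin 2, rose from 0.76 ± 0.52 to 13.4 ± 1.41 CPM (edgeR adjusted p = 0.0015, log2 fold change 4.13 with SE 0.48, and 4.85 without sgNeo replicate 1). Sesn2, a leucine sensor that restrains mTORC1, fell from 41.5 ± 1.86 to 20.01 ± 2.91 CPM, and Vldlr, a lipoprotein receptor, from 36.0 ± 2.44 to 18.5 ± 2.76 CPM. The remaining calls, named after their values were seen, were Ddit4, an mTORC1 inhibitor, at 5.00 ± 0.53 and 11.9 ± 2.85 CPM, Cth, which makes cysteine, at 13.6 ± 1.84 and 7.06 ± 0.92 CPM, and Pycr1. Without a library, 1 or 2 passed as higher and 2 or 3 as lower: Ddit4 and Cth lost their calls without any one sgNeo library, sgLkb1 replicate 2 or sgLkb1 replicate 3, and Pycr1 in all 6 such fits.

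Of 19 enzymes of serine, glycine and folate one-carbon metabolism 18 were tested, 1 rose and 2 fell, with a median log2 fold change of 0.03. Gldc, the glycine decarboxylase of the glycine cleavage system, rose most. It was at 3.57, 3.52 and 8.29 CPM with sgNeo and 36.7, 68.9 and 52.7 CPM with sgLkb1, with every sgLkb1 library above every sgNeo library. Its log2 fold change was 3.36 (SE 0.40, edgeR adjusted p = 0.0016), and the call held in all 6 fits that left out a library, between 3.15 and 3.89. Mthfd1, the cytosolic trifunctional folate enzyme, fell from 153 ± 16.4 to 58.9 ± 11.4 CPM (edgeR adjusted p = 0.0030, log2 fold change -1.37 with SE 0.19), and held in all 6. Gnmt, which methylates glycine, dropped from 8.67 ± 1.21 to 2.62 ± 1.19 CPM (edgeR adjusted p = 0.022), but lost its call when either of sgNeo replicates 1 and 2 or sgLkb1 replicate 1 was removed (edgeR adjusted p up to 0.076). Psph, the last enzyme of serine synthesis, was at 10.9 ± 1.504 and 15.6 ± 3.52 CPM (edgeR adjusted p = 0.19), and Shmt1, which interconverts serine and glycine in the cytosol, at 53.7 ± 5.47 and 39.0 ± 8.17 CPM (edgeR adjusted p = 0.13). Gcsh, the carrier protein of glycine cleavage, named after its values were seen, was at 46.3 ± 4.28 and 71.7 ± 14.2 CPM and just missed the threshold (edgeR adjusted p = 0.053); it passed with 3 other library scalings.

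Of 11 genes of glutamine, glutamate and proline metabolism 10 were tested. In all 1 rose, 3 fell, and the median log2 fold change was -0.45. Aldh4a1, which makes glutamate in proline breakdown, fell from 49.5 ± 6.61 to 20.7 ± 4.55 CPM (edgeR adjusted p = 0.0058, log2 fold change -1.26 with SE 0.20), and held in all 6 fits with a library left out. Oat, the ornithine aminotransferase, fell from 359 ± 22.5 to 213 ± 33.8 CPM (edgeR adjusted p = 0.022), but lost its call without any one sgNeo library or sgLkb1 replicate 2 (edgeR adjusted p up to 0.087). Pycr1, the last enzyme of proline synthesis, was the other fall, from 10.9 ± 2.70 to 5.67 ± 0.19 CPM (edgeR adjusted p = 0.048), and this call was lost with any of 3 other library scalings. Gls2, the liver-type glutaminase, was at 1.29 ± 0.83 and 3.53 ± 0.79 CPM (edgeR adjusted p = 0.14). With a library left out, 0 or 1 passed as higher and 1 or 2 as lower.

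Among 9 enzymes that take the amide nitrogen of glutamine, all tested, 1 rose and the median log2 fold change was 0.20. Ppat, the first committed step of purine synthesis, rose from 51.9 ± 3.72 to 79.7 ± 8.91 CPM (edgeR adjusted p = 0.027, log2 fold change 0.62 with SE 0.15), a call lost without any one sgNeo library or sgLkb1 replicate 2 (edgeR adjusted p up to 0.11). Pfas and Gmps, also of purine synthesis, were at 13.5 ± 3.87 and 13.4 ± 2.39 CPM and at 134 ± 35.5 and 195 ± 66.3 CPM (edgeR adjusted p = 0.97 and 0.25). Gfpt2, of hexosamine synthesis, was at 1.66, 4.85 and 38.5 CPM with sgLkb1 against 1.68 to 5.34 CPM in sgNeo, so that 1 library set its mean (edgeR adjusted p = 0.18, log2 fold change 2.31, and 0.08 without that library). It passed without the filter on low counts (edgeR adjusted p = 0.00025). That library, sgLkb1 replicate 3, also had the highest summed fibroblast markers.

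Of 12 genes of the urea cycle and arginine 9 were tested, 2 rose and 1 fell. The median log2 fold change was 0.97, which is the value of Odc1, against 0.02 over all genes. Otc and Asl, of the urea cycle, were lower without passing (log2 fold change -0.51 and -0.17). Ass1, also of the cycle, was higher without passing (2.20, edgeR adjusted p = 0.058). The arginases, which split arginine into urea and ornithine, moved in opposite directions. Arg1, the cytosolic form, was at 4.17, 2.92 and 3.07 CPM in the sgNeo libraries against 26.4, 23.2 and 15.5 CPM in those with sgLkb1 (edgeR adjusted p = 0.0011, log2 fold change 2.68 with SE 0.28). Arg2, the mitochondrial form, was at 175, 123 and 112 CPM with sgNeo and 56.7, 30.02 and 33.2 CPM with sgLkb1 (edgeR adjusted p = 0.0058, log2 fold change -1.77 with SE 0.29). Neither gene's groups overlapped, and both calls held in all 6 fits that left out a library. Some myeloid cells also express Arg1. Of 7 leukocyte markers 6 were tested, 0 rose and the B-cell gene Cd79a fell, with a summed level of 15.9 to 20.5 CPM in sgNeo and 14.9 to 33.1 CPM in sgLkb1 libraries. Among the myeloid markers, S100a8 was at 1.31 ± 1.06 and 5.26 ± 3.12 CPM (edgeR adjusted p = 0.077) and Adgre1 at 1.44 ± 0.55 and 4.52 ± 1.99 CPM (edgeR adjusted p = 0.053), each without overlap between genotypes, while Csf1r and Itgam overlapped. The part of such cells in the difference in Arg1 was not tested. Odc1, which starts polyamine synthesis from ornithine, rose from 90.9 ± 9.18 to 178 ± 58.0 CPM (edgeR adjusted p = 0.031), but passed only without sgLkb1 replicate 1 among the 6 fits (edgeR adjusted p up to 0.13).

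Of 13 other aminotransferases 7 were tested, 0 rose and Oat, counted in both lists, fell, with a median log2 fold change of -0.00. Bcat2, the mitochondrial branched-chain aminotransferase, was at 63.5 ± 10.2 and 63.5 ± 15.1 CPM (edgeR adjusted p = 1.00), and Bcat1, the cytosolic form, at 0.15 ± 0.22 and 1.56 ± 1.25 CPM (edgeR adjusted p = 0.10). Bcat1 passed without the filter on low counts (edgeR adjusted p = 0.0084) and with DESeq2 (adjusted p = 0.027), and its log2 fold change of 3.38 was 6.02 without sgNeo replicate 3 and 2.65 without sgLkb1 replicate 3. Kyat1, a kynurenine aminotransferase, was at 30.8 ± 2.56 and 19.3 ± 4.35 CPM (edgeR adjusted p = 0.058) and passed with DESeq2 (adjusted p = 0.027) or without sgLkb1 replicate 2 (edgeR adjusted p = 0.046). At an unadjusted p under 0.05, 4846 of all 15978 genes passed.

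Of 13 partners of the malate-aspartate shuttle and users of aspartate or asparagine 11 were tested, 2 rose and 2 fell, with a median log2 fold change of 0.07. The shuttle's malate dehydrogenases Mdh1 and Mdh2 were at 201 ± 16.1 and 210.2 ± 6.95 CPM and at 310.3 ± 60.4 and 375 ± 65.3 CPM (edgeR adjusted p = 0.80 and 0.42). Asrgl1, an asparaginase, fell from 6.77 ± 0.46 to 1.82 ± 0.58 CPM (edgeR adjusted p = 0.011, log2 fold change -1.89 with SE 0.36), and Adssl1, an adenylosuccinate synthase that consumes aspartate, fell from 258 ± 47.6 to 122 ± 6.58 CPM (edgeR adjusted p = 0.0060). Nat8l, which makes N-acetylaspartate, had no counts in sgNeo and was at 0.98, 11.1 and 7.52 CPM with sgLkb1, at least 159-fold higher with the sgNeo group set at 3 counts in all (at least 99.3-fold without sgLkb1 replicate 2, 234-fold without sgLkb1 replicate 1, and 105-fold to 106-fold without a sgNeo library). Nat8l passed the filter on low counts through its sgLkb1 libraries alone. With that filter it passed with edgeR (adjusted p = 0.010) and not with limma-voom (adjusted p = 0.073). Its call was also lost with a filter of at least 1 CPM in 3 libraries. Aspa, which splits N-acetylaspartate, named after its values were seen, rose from 16.6 ± 2.89 CPM to 28.99, 120.1 and 33.7 CPM (edgeR adjusted p = 0.045) and did not pass without any one sgNeo library or with limma-voom.

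**Figure D5:**
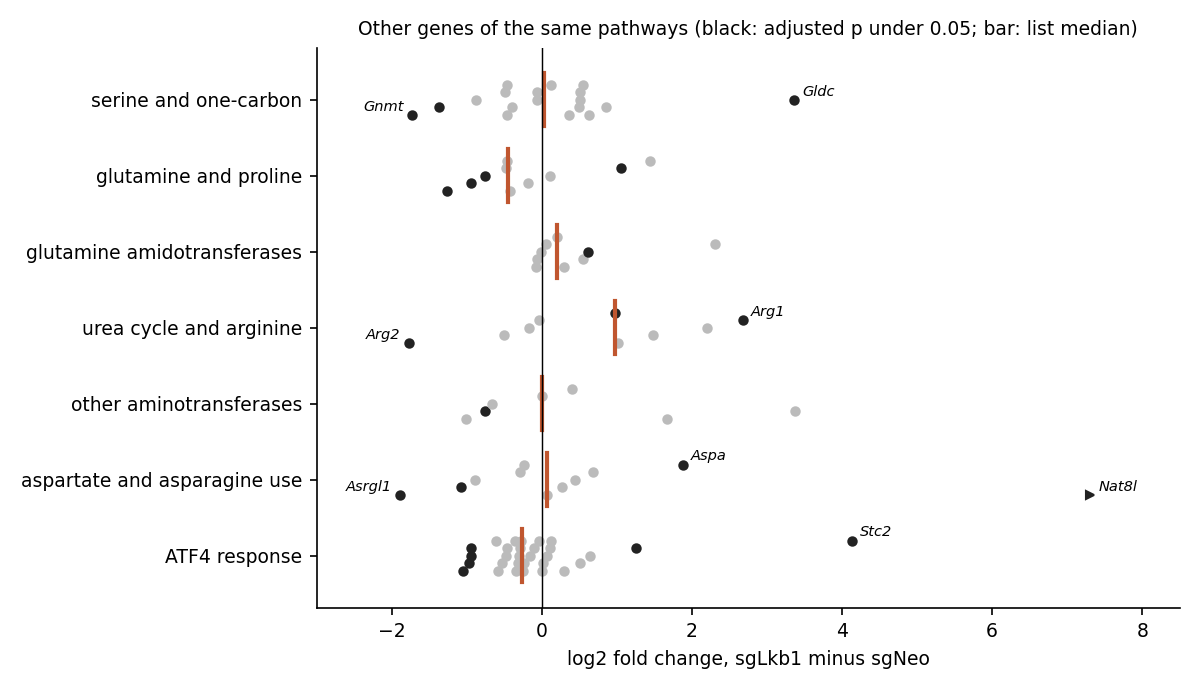
Log2 fold change of the tested genes of 7 related lists (points), sgLkb1 minus sgNeo; black points passed at an adjusted p under 0.05, and bars mark the list medians. The triangle for Nat8l is a lower bound, since sgNeo held no counts. Gldc (3.36), Stc2 (4.13) and Arg1 (2.68) stand highest among the called genes with counts in both genotypes, and each list's median lies between -0.45 and 0.97.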

How the data were processed

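RNA of 6 libraries of sorted tumour cells, 3 per genotype, was measured by sequencing of Nextera XT libraries, per the labels' protocols. The authors deposited RSEM expected counts per gene, which need not be whole, and per the submitters' processing notes FastQC, STAR, RSEM and DESeq2 were used with GRCm38; the sources used here do not give versions, annotation release or strand setting. These expected counts were made whole by rounding, filtered with filterByExpr and scaled by TMM. Genotypes were compared with edgeR 4.0.16 (quasi-likelihood test, R 4.3.3) over all genes passing the filter, with Benjamini-Hochberg adjustment at 0.05. Standard errors are the size of the log2 fold change over the square root of the F statistic. Alternatives used limma 3.58.1 (voom), DESeq2 1.42.0, other scalings and filters, and each library left out. Ratios between genes were compared over libraries with the exact permutation test. Gene positions and lengths came from a GENCODE annotation of GRCm38.

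The members and the 7 gene lists were chosen with earlier results of these data known. Text names all members, the first 2 genes and the 3 with the lowest p of each list, the 3 genes with the pattern most like each called member, and Stk11; other names were chosen after values were seen. On simulated counts of this design (15592 genes, 50 changed at each size), 2% of 1.5-fold, 32% of 2-fold, 88% of 4-fold and 98% of 8-fold changes were recovered. The changed genes all had a mean of at least 5 CPM. Fewer genes were changed there than were called in the data (2501), so the adjusted threshold was stricter and these shares need not hold for the real fit. The largest correlation between any 2 libraries was 0.964. Intervals for counts of 0 cover counting error only. Values of 1 further gene, and 1 ratio that needs it, are not reported here; it is included in the counts of its list.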

Additional observations from a re-analysis of the deposited data

How the results depend on the processing

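With a library left out, the number of genes called ran from 1129 to 2780 (447 to 1368 higher, 682 to 1412 lower), the members called from 0 to 3 higher and 1 to 2 lower, and the genes of the 7 lists from 4 to 11 higher and 7 to 10 lower; fewer libraries enter those fits. Without the filter on low counts 1917 genes were higher, 14 of them in the lists, and with DESeq2 1819 were higher. Gpt, Gpt2, Got1 and Glul kept direction and call under all 9 other settings of scaling, filter, test, dispersion and block. Other scalings moved the median log2 fold change of all genes to at most 0.05, and 38.5% (limma-voom) to 55.7% (no filter) of the calls were higher, against 45.1%.

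Deviations of same-numbered libraries correlated weakly, at 0.13, -0.02 and 0.11 for replicates 1, 2 and 3. For sgNeo replicates 1 and 3 the same-numbered sgLkb1 library was the best match, while sgNeo replicate 2 correlated best with sgLkb1 replicate 1 (0.05). The labels name no pairing, and whether the numbers mark one was not tested. With the replicate number as a block 2880 genes were called, against 2501 without it. Phgdh (log2 fold change 0.85, edgeR adjusted p = 0.035), Bcat1 (0.048), Gmps (0.048) and Slc25a12 gained calls, while Aspa and Pycr1 lost theirs. For Cps1, which has no counts, only an upper limit can be given. With 3 counts over all libraries of a genotype it was 0.040 CPM in sgNeo and 0.026 CPM in sgLkb1.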
